A study of Mus musculus with 18 samples.

Results

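The genes of 3 families of conjugating enzymes, the UDP-glucuronosyltransferases (UGT), the sulfotransferases (SULT) and the glutathione transferases (GST), were examined in liver RNA of mice lacking lysosomal acid lipase (LAL) and of mice given its human cDNA. Members were taken from the deposited count table by symbol, and 70 of its 35441 genes matched, with 21 UGT, 25 SULT and 24 GST symbols. Of these, 48 genes had more than 100 reads summed over the 18 mice and were tested among the 14533 genes past that limit, namely 18 UGT, 10 SULT and 20 GST genes. The other 22 symbols had 100 reads or fewer, and 9 of them had no read in any mouse. The matching by symbol used no difference between the groups, but the members were chosen with earlier results of these data known. The read limit was applied to the sum over all groups, so high expression in some groups could bring a gene into the test.

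Whole livers of 18 male mice were sequenced, 3 in each of 6 groups, namely wild-type (WT) mice, Lipa-/- mice and Lipa-/- mice treated with an rAAV8 vector, each at 12 and at 34 weeks after the injection (12-weeks and 34-weeks, labelled 3 and 8 months). Lipa-/- mice carry a germline deletion of exon 4 of Lipa, made from a tm1a allele with CMV-Cre on the C57/BL6N background, and both Lipa-/- groups share it. Treated mice received rAAV8.hAAT.LIPA, a single-stranded vector with the human LIPA cDNA under the hepatocyte-specific human α1-antitrypsin promoter, through the tail vein at 10 to 12 weeks of age, whereas WT and Lipa-/- mice received no vector. The mice were littermates matched for age and sex. Most Lipa-/- mice of the long arm were reported to have been killed at a humane endpoint before the end of the study, so that the 34-week Lipa-/- livers can be of another age than the livers beside them. All 34-week libraries carry study code 22-106 and the 12-week libraries carry 22-132, apart from Lipa-/- mouse 5 with 23-004, so time point and study code cannot be told apart.

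Conjugating enzymes make lipophilic compounds water soluble by joining a polar group to them. UGT enzymes sit in the endoplasmic reticulum and transfer a sugar, mostly glucuronic acid, to bilirubin, steroids, bile acids and drugs. SULT enzymes of the cytosol transfer sulfate from the donor PAPS to steroids, bile acids, thyroid hormone and phenols, and GST enzymes couple glutathione to electrophiles such as epoxides and products of lipid peroxidation. In rodent liver many of these genes are expressed at different levels in males and females.

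Between 17527848 and 25833134 reads were assigned to genes in a mouse, and the 48 tested members took 0.378% to 1.72% of them. Murine Lipa measured 202 to 323 CPM (read counts relative to the library total, scaled by the trimmed mean of M values, TMM) in the WT mice, 16.7 to 33.4 in the Lipa-/- mice and 29.1 to 37 in the treated mice. The vector transcript hLIPA was found at 523 to 2746 CPM in the 6 treated mice and otherwise in 1 WT mouse at 34-weeks, at 0.906 CPM. The TMM factors differed between groups (0.587 to 0.759 in treated mice at 12-weeks, 1.37 to 1.69 in Lipa-/- mice at 34-weeks, 0.806 to 1.23 in the others), so results that change with the scaling are given with both values. A gene was called when its fold change was past 1 on the log2 scale with an adjusted p below 0.05 in edgeR's quasi-likelihood test, adjusted over the 14533 genes. Nothing in the labels ties mice to separate cages or litters, and the p-values measure the spread between mice of a group.

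In Lipa-/- livers most conjugating enzymes were lower than in WT livers at both time points. At 12-weeks 26 of the 48 genes were lower and 4 were higher, where 9.06% of all tested genes were lower and 20.2% higher. At 34-weeks 32 were lower and 2 were higher, against 15.7% and 20.5% of all tested genes. The median log2 fold change of the 48 genes was -1.22 at 12-weeks and -2.32 at 34-weeks, beside 0.02 and -0.03 over all genes. Of the 26 genes lower at 12-weeks, 25 were also lower at 34-weeks. Values of Lipa-/- and WT mice did not overlap for 40 of the 48 genes at 12-weeks and for 37 at 34-weeks. Over all tested genes the groups did not overlap for 52.7% and 60.3%, so such a gap in a single gene is common in these data. Some of the genes described below were picked for that gap. By family, 12 of 18 UGT, 4 of 10 SULT and 10 of 20 GST genes were lower at 12-weeks, and 15, 6 and 11 at 34-weeks. The genes higher in Lipa-/- mice were the sulfotransferases Sult1e1 and Sult2b1 at both time points, and Sult3a1 and the mu-class Gstm5 at 12-weeks. Sult1e1, Sult2b1 and Sult3a1 passed the read limit only through the Lipa-/- mice, so a higher value there was a condition of their being tested. Their part in the counts of higher genes is therefore no support for a rise. With scaling by total counts alone the 12-week split was 15 lower and 6 higher, with all genes at a median of 0.49, and with TPM values in limma it was 16 lower and 5 higher. The 34-week split was 28 lower and 3 higher with total counts, where Gstm5 was added. It was 28 lower and 4 higher with TPM values in limma, where Gstm5 and Gstp2 were added.

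Summed over a family in TPM, the abundance of transcripts relative to the library and per transcript length, the WT mice at 12-weeks held 9272 ± 1360 TPM of GST, 2245 ± 18.7 of UGT and 844 ± 29.6 of SULT transcripts (mean ± SD, n = 3). The UGT sum was 704, 927 and 946 TPM in the Lipa-/- mice at 12-weeks and 424, 558 and 741 at 34-weeks, while the WT mice measured 2226 to 2264 and 2173 to 2730. All Lipa-/- mice were thus below all WT mice, at 0.383 and 0.228 of the WT mean. SULT transcripts summed to 404, 425 and 483 TPM in Lipa-/- mice at 12-weeks against 810 to 864 in WT mice, and to 295, 343 and 509 against 705 to 1002 at 34-weeks. Most of the WT sum was 1 gene, Sult2a8, at a mean of 526 TPM at 12-weeks and 439 TPM at 34-weeks. The next gene, Sult1a1, was at 209 TPM in WT and 307 TPM in Lipa-/- mice at 12-weeks, and at 253 and 247 TPM at 34-weeks. The median log2 fold change of the 10 SULT genes was -0.20 and -1.82, so the SULT sum does not stand for the family. GST transcripts stood at 0.642 and 0.577 of the WT mean, with 5481 to 6691 TPM against 7813 to 10505 and 3571 to 6536 against 7092 to 9900. Summed as CPM instead, Lipa-/- mice stood at 0.282 and 0.148 of the WT mean for UGT, 0.307 and 0.216 for SULT and 0.477 and 0.324 for GST. Each of the 6 differences had, on either scale, an exact two-sided permutation p of 0.1, the smallest that 3 mice against 3 allow.

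**Figure D1:**
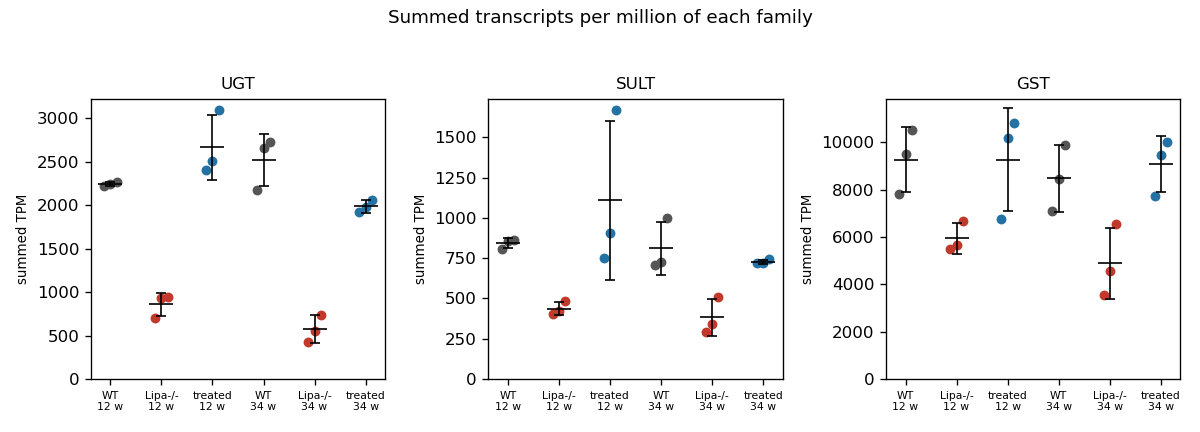
Summed TPM of the UGT, SULT and GST genes in each mouse (points) with the mean and SD of 3 mice (lines), by group; the vertical axes are linear and start at 0. In each family the Lipa-/- mice of both time points lie below all WT mice of the same time point, for example 424 to 741 against 2173 to 2730 TPM of UGT at 34-weeks.

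Whole liver RNA was measured, so fewer hepatocytes in a liver and less RNA per hepatocyte cannot be told apart. Among 7 tested hepatocyte markers (Alb, Ttr, Apoa1, Apob, Serpinc1, Cps1 and Pck1), 2 were lower in Lipa-/- mice at 12-weeks and 5 at 34-weeks, with medians of -0.78 and -1.30. Their summed TPM overlapped between the groups, with 38795 to 47826 in WT and 37635 to 54421 in Lipa-/- mice at 12-weeks, and 43221 to 48625 and 26346 to 51268 at 34-weeks. Macrophage markers moved the other way, with 7 of 8 higher at both time points and sums of 70.3 to 170 against 4435 to 9468 TPM at 12-weeks and 144 to 275 against 4913 to 8453 at 34-weeks. Among these, the Kupffer cell marker Clec4f had log2 fold changes of -1.51 (adjusted p = 0.263) and -2.73 (adjusted p = 0.0445). Neutrophil markers were higher in 7 and 6 of 7 genes, cholangiocyte markers in 4 and 6 of 6, and stellate cell markers in 4 and 5 of 6 with 1 lower. Their sums at 34-weeks were 516 to 1576 TPM in Lipa-/- against 3.54 to 13.8 in WT mice for neutrophils, 1193 to 2619 against 23.8 to 45.4 for cholangiocytes and 193 to 631 against 7.27 to 19.1 for stellate cells. Most of the cholangiocyte sum was Spp1, at a mean of 1423 CPM in Lipa-/- against 35.5 CPM in WT mice at 34-weeks. The next largest gene of that list, Sox9, was at 36.1 against 6.32 CPM, and Krt19 at 4.4 against 0.953 CPM. The neutrophil genes Ngp, Camp and Mpo had no read in the WT mice at 12-weeks. Endothelial markers were higher in 1 and lower in 2 of 6 genes at both time points, erythroid markers were lower in 1 of 6 at 12-weeks and higher in 1 and lower in 2 at 34-weeks, and enterocyte and pancreas markers were higher in 1 and 3 and lower in 2 and 2 of 5. In treated mice at 34-weeks 2 macrophage markers, Trem2 and Gpnmb, were still above WT mice, and of the other marker lists of cells none had a call, although the neutrophil sum reached 2361 TPM in 1 of these mice. The part of these cells in the differences of the conjugating enzymes was not tested.

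The sulfotransferases held both the steepest falls and the steepest rises. Sult2a8 (chr7:14144611-14180694, minus strand, GRCm39), the main bile acid sulfotransferase of mouse liver, made up 62.4% of the SULT TPM of WT mice at 12-weeks. It measured 1111, 1122 and 726 CPM in WT mice and 1.99, 7.65 and 3.6 CPM in Lipa-/- mice at 12-weeks. At 34-weeks it measured 1356, 427 and 519 CPM in WT and 0.505, 0.464 and 0.735 CPM in Lipa-/- mice. The Lipa-/- livers thus held 0.447% and 0.0741% of the WT mean, with log2 fold changes of -7.80 ± 0.70 (SE, adjusted p = 3.57e-07) and -10.39 ± 0.79 (adjusted p = 9.7e-08). Treated mice measured 4134, 1005 and 2065 CPM at 12-weeks and 448, 647 and 560 CPM at 34-weeks, in both cases overlapping with WT mice (adjusted p = 0.0629 and 0.971) and above all Lipa-/- mice.

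Its neighbour Sult2a7 (chr7:14198976-14228155) was lost at a lower level. There were 32, 38 and 40 reads in the WT mice at 12-weeks and 1 read in a single Lipa-/- mouse, a ratio of 148 (95% counting interval 25.9 to 5879). At 34-weeks 143, 157 and 104 reads were counted in WT mice and none in the 3 Lipa-/- mice, at least 53.7-fold lower when 3 reads per library are taken as the limit. Treated mice held 49, 38 and 40 reads and 24, 34 and 78 reads. The adjusted p against WT mice was 1.12e-05 and 5.21e-07 for Lipa-/- mice, and 0.184 and 0.351 for treated mice. Intervals and limits of this kind cover counting error only.

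Sult1e1, the estrogen sulfotransferase, which inactivates estrogens and is nearly silent in a healthy male liver, went in the opposite direction. WT mice held 2 to 6 reads each, that is 0.107, 0.191 and 0.314 CPM at 12-weeks and 0.118, 0.236 and 0.195 CPM at 34-weeks. Lipa-/- mice reached 95.7, 24.5 and 24.4 CPM at 12-weeks and 47.1, 45.7 and 100 CPM at 34-weeks. All 6 Lipa-/- mice were far above all other mice, with log2 fold changes of 7.84 ± 0.96 (adjusted p = 7.93e-06) and 8.36 ± 0.96 (adjusted p = 3.27e-06). Treated mice measured 2.04, 0.0543 and 0.537 CPM at 12-weeks and 0.691, 0 and 0.467 CPM at 34-weeks, lower than Lipa-/- mice by log2 fold changes of -5.96 ± 0.85 and -7.28 ± 0.89. Sult1e1 passed the read limit only through the Lipa-/- mice, so a higher value there was a condition of its being tested. These tests are therefore no support for a rise, or for a fall in treated mice. In TPM, Sult1e1 made up 12.7% and 26.2% of all SULT transcripts of Lipa-/- livers.

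Sult1e1 lies in a row with Sult1d1 and Sult1b1 on the minus strand of chromosome 5 (chr5:87661191-87739461, GRCm39), with 6.9 kb between Sult1d1 and Sult1e1 and 16.4 kb between Sult1b1 and Sult1d1. The 3 genes share no stretch of 31 bases with another gene, so their reads can be told apart. Sult1b1, which sulfates thyroid hormone and phenols, measured 35.7, 40 and 29.2 CPM in WT and 5.89, 7.5 and 5.58 CPM in Lipa-/- mice at 12-weeks. At 34-weeks it measured 51.6, 18.5 and 26.1 CPM in WT and 2.02, 2.16 and 4.19 CPM in Lipa-/- mice. Without overlap between these groups, the log2 fold changes were -2.47 ± 0.41 (adjusted p = 0.000162) and -3.52 ± 0.43 (adjusted p = 6.21e-06). Sult1d1, which sulfates catecholamines and other amines in mice, measured 133, 203 and 127 CPM in WT and 74.1, 119 and 135 CPM in Lipa-/- mice at 12-weeks, groups that overlapped. At 34-weeks it measured 317, 99.9 and 112 CPM in WT and 29.2, 34 and 44 CPM in Lipa-/- mice, a log2 fold change of -2.30 ± 0.57 (adjusted p = 0.00307). Treated mice measured 1545, 304 and 403 CPM at 12-weeks, above all WT mice of that time point, and 67.6, 97.9 and 157 CPM at 34-weeks.

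Because neighbours in this row moved in opposite directions, the 250 bases before the annotated start of Sult1e1 and Sult1d1 are shown with those of Sult2a8, the sulfotransferase with the deepest fall. They are RefSeq windows of GRCm38.p6, printed 5′ to 3′ on the strand of the gene, here the minus strand (chr5:87591612-87591861, chr5:87569007-87569256 and chr7:14446588-14446837). For Sult2a8, which has more than one annotated start, the window of the most upstream start is given. Capitals mark matches to any of 3 motifs searched on both strands, TGACNNNGC (antioxidant response), GCGTG (xenobiotic response) and TTCNNNGAA (STAT).
Sult1e1: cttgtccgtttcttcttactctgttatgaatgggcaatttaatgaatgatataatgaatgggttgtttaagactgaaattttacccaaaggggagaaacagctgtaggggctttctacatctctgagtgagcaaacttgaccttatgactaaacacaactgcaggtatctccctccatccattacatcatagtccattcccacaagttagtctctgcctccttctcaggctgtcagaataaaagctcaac
Sult1d1: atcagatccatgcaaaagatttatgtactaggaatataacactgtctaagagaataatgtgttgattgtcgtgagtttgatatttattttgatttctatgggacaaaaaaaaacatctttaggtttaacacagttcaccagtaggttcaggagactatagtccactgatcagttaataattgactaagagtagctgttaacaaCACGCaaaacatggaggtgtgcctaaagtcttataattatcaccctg
Sult2a8: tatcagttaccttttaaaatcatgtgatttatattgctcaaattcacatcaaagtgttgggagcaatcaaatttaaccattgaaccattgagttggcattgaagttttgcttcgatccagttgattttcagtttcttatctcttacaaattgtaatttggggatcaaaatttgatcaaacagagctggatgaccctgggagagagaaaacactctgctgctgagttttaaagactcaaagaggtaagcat
One match was found, to the xenobiotic motif in Sult1d1, and these letters do not occur in the other windows shown. Over windows of 300 bases, from 250 before to 50 after the start, 32.4% of 32851 RefSeq promoters held GCGTG, 12.4% TGACNNNGC and 8.3% TTCNNNGAA. Of the 43 members with such a window, 11, 3 and 4 held them (25.6%, 6.98% and 9.3%). A match to these letters is a description of the sequence and not a measured binding site.

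Sult5a1, which is male-predominant in mouse liver, measured 24.9, 26.5 and 18 CPM in WT and 1.35, 1.32 and 2.55 CPM in Lipa-/- mice at 12-weeks. At 34-weeks the WT mice were lower, at 9.73, 6.42 and 9.11 CPM, and the Lipa-/- mice stood at 1.29, 0.58 and 1.91 CPM. Both differences passed the test, with log2 fold changes of -3.73 ± 0.59 (adjusted p = 0.000107) and -2.73 ± 0.58 (adjusted p = 0.00102). The treated mice measured 37.4, 4.56 and 15 CPM at 12-weeks and 10.4, 13.7 and 19.6 CPM at 34-weeks. The 3 treated mice at 34-weeks lay above the 3 WT mice, by 0.79 ± 0.53 on the log2 scale (adjusted p = 0.965).

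Sult1a1, the phenol sulfotransferase, changed less than Sult2a8, and was the most abundant SULT transcript of Lipa-/- livers, with 70.1% of SULT TPM at 12-weeks and 64.6% at 34-weeks against 24.7% and 31.2% in WT mice. It measured 188, 290 and 280 CPM in WT and 300, 281 and 233 CPM in Lipa-/- mice at 12-weeks, overlapping groups with a log2 fold change of 0.10 ± 0.27 (adjusted p = 0.791). At 34-weeks it measured 316, 256 and 231 CPM in WT and 119, 146 and 230 CPM in Lipa-/- mice, a log2 fold change of -0.70 ± 0.27 (adjusted p = 0.0408) that missed the fold threshold. Without Lipa-/- mouse 6 the 34-week value was -1.01 (adjusted p = 0.00682). Across the alternatives it ran from -1.01 to -0.06, and mean TPM at 34-weeks was 247 in Lipa-/- against 253 in WT mice. Treated mice measured 253, 386 and 228 CPM and 254, 245 and 236 CPM.

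The remaining sulfotransferases were scarce. Sult2b1, which sulfates cholesterol and pregnenolone, had 40 reads in the 3 Lipa-/- mice at 12-weeks against 3 in the WT mice, a count ratio of 9.94 (95% interval 3.17 to 50.2), and 77 against 4 reads at 34-weeks, a ratio of 15.4 (5.79 to 58.1). Sult3a1, an amine sulfotransferase known as female-predominant, had 46, 23 and 9 reads in Lipa-/- mice at 12-weeks and 2 reads in all WT mice, a ratio of 29.1 (7.78 to 244). At 34-weeks it had 7, 6 and 4 reads in Lipa-/- and 0, 12 and 4 reads in WT mice, a log2 fold change of -0.14 (adjusted p = 0.911). Sult2b1 and Sult3a1 passed the read limit only through the Lipa-/- mice, so their ratios are no support for a rise. Without Lipa-/- mouse 5 or mouse 8 of the 12-week group Sult3a1 no longer exceeded 100 reads over the remaining mice and was not tested, and the 12-week call of Sult2b1 was lost without WT mouse 1 (adjusted p = 0.0715) or WT mouse 3 (adjusted p = 0.0689). Sult1c2 measured 1.88 to 2.36 CPM in WT and 2.95 to 5.24 CPM in Lipa-/- mice at 12-weeks, and 3.42 to 5.96 against 1.2 to 2.46 CPM at 34-weeks. Only the second of these differences was past the fold threshold (-1.33 ± 0.35, adjusted p = 0.00478), and the change of the difference between time points was -2.25 ± 0.49 (adjusted p = 0.0941).

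**Figure D2:**
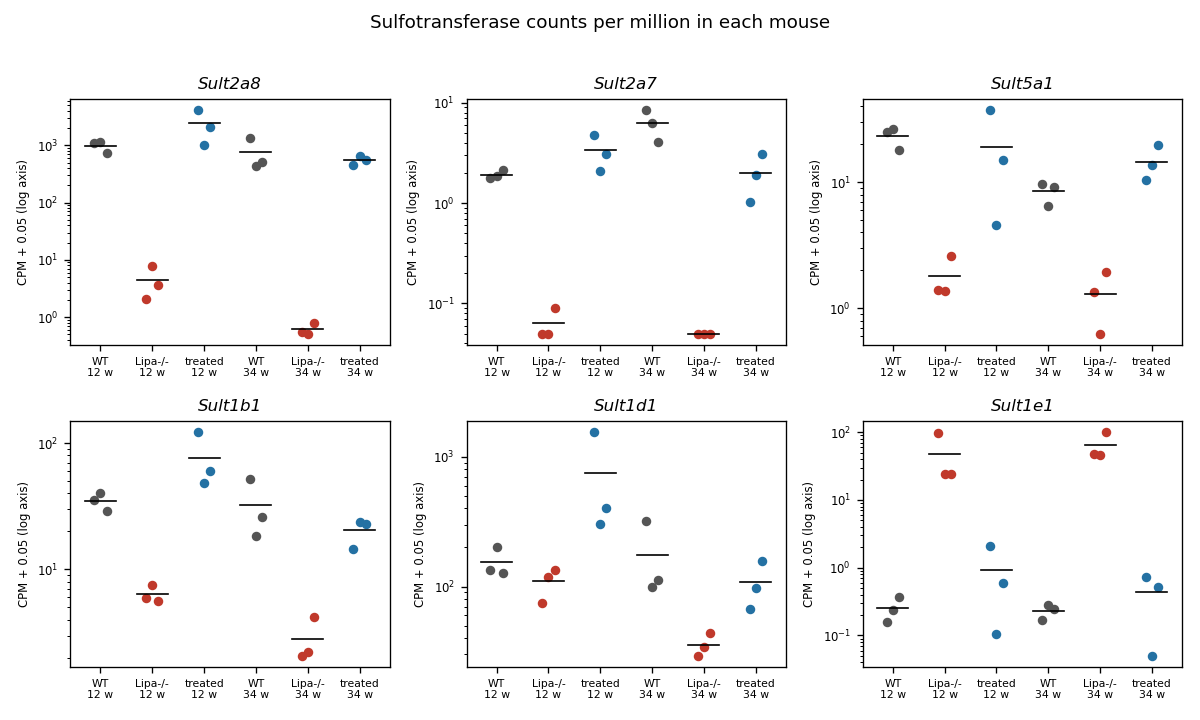
Abundance (CPM) of 6 sulfotransferases in each mouse (points; black line, group mean), on a log axis with 0.05 CPM added so that a count of 0 can be drawn. Sult2a8, Sult2a7, Sult5a1 and Sult1b1 are lower in all Lipa-/- mice of a time point than in all WT mice, Sult1d1 at 34-weeks only, and Sult1e1 is higher, at 24.4 to 100 CPM against 0.107 to 0.314 CPM.

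Among the UGT genes the Ugt2b cluster carried the fall. Summed over its 7 genes, which lie with Ugt2a3 within chr5:87037626-87572062, Ugt2b reads were lower in Lipa-/- mice by -2.22 ± 0.38 (adjusted p = 0.000236) at 12-weeks and -3.25 ± 0.40 (adjusted p = 6.37e-06) at 34-weeks on the log2 scale. Ugt2b1 (chr5:87064497-87074389, minus strand), a steroid- and drug-conjugating enzyme, measured 772, 878 and 653 CPM in WT and 42.2, 60.4 and 23.9 CPM in Lipa-/- mice at 12-weeks. At 34-weeks it measured 433, 234 and 354 CPM in WT and 10.1, 7.5 and 11.9 CPM in Lipa-/- mice. These are 5.49% and 2.89% of the WT mean, the deepest falls of the family, with log2 fold changes of -4.19 ± 0.41 (adjusted p = 9.62e-07) and -5.11 ± 0.43 (adjusted p = 2.1e-07). In treated mice Ugt2b1 measured 1363, 531 and 1156 CPM at 12-weeks and 485, 500 and 338 CPM at 34-weeks, overlapping with WT mice at both time points.

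Ugt2b5 and Ugt2b36 were the most abundant UGT transcripts of WT livers, with 23.4% and 21.1% of the family's TPM at 12-weeks. Ugt2b5, of the class that conjugates steroids and drugs, measured 1028, 1184 and 826 CPM in WT and 154, 209 and 172 CPM in Lipa-/- mice at 12-weeks, and 1647, 611 and 874 CPM against 62.2, 66.9 and 121 CPM at 34-weeks. Its log2 fold changes were -2.51 ± 0.37 (adjusted p = 5.12e-05) and -3.65 ± 0.39 (adjusted p = 1.47e-06). Ugt2b36 measured 858, 963 and 613 CPM in WT and 200, 298 and 278 CPM in Lipa-/- mice at 12-weeks, and 1767, 503 and 690 CPM against 77.6, 69.6 and 142 CPM at 34-weeks (log2 fold changes -1.65 ± 0.46 and -3.35 ± 0.49, adjusted p = 0.00917 and 3.65e-05). Both genes were lower in every Lipa-/- mouse than in any WT mouse of the same time point. Treated mice exceeded WT mice at 12-weeks, with 2674, 1838 and 2294 CPM of Ugt2b5 and 4462, 1823 and 2098 CPM of Ugt2b36. At 34-weeks they measured 488, 835 and 711 CPM and 336, 584 and 609 CPM.

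Ugt2b38 shares 52.9% of its 31-base stretches with other genes, mainly Ugt2b5, so its reads are less certain. It measured 101, 78.9 and 52.6 CPM in WT and 1.31, 5.86 and 6.39 CPM in Lipa-/- mice at 12-weeks, and 64.9, 25.7 and 36.3 CPM against 1.58, 1.55 and 3.38 CPM at 34-weeks (log2 fold changes -4.10 ± 0.60 and -4.28 ± 0.62). The treated mice, at 272, 72.9 and 188 CPM and at 31.2, 53.3 and 31.2 CPM, overlapped with WT mice. Ugt2b37, with 34.4% shared stretches, was scarce in WT mice (1.07, 1.67 and 0.942 CPM at 12-weeks) and reached 93.6, 4.46 and 12.6 CPM in treated mice, a log2 fold change of 4.89 ± 0.91 (adjusted p = 0.00277). In Lipa-/- mice it measured 0.355, 0.35 and 0.445 CPM at 12-weeks and 0.189 to 0.294 CPM at 34-weeks, against 0.623 to 1.02 CPM in WT mice at 34-weeks, and was not called. The remaining Ugt2 genes, Ugt2a3, Ugt2b34 and Ugt2b35, were lower at both time points, with log2 fold changes between -1.44 and -2.47 at 12-weeks and between -2.26 and -3.37 at 34-weeks.

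The Ugt3 enzymes use other sugars than glucuronic acid, N-acetylglucosamine in the case of Ugt3a1 and glucose in that of Ugt3a2. Ugt3a1 (chr15:9335636-9371564, plus strand) measured 119, 127 and 116 CPM in WT and 6.57, 10.2 and 9.25 CPM in Lipa-/- mice at 12-weeks, and 202, 126 and 156 CPM against 3, 4.99 and 6.58 CPM at 34-weeks. With 7.22% and 3.01% of the WT mean, it had the smallest adjusted p of the UGT genes (-3.80 ± 0.31, adjusted p = 1.44e-07, and -5.06 ± 0.33, adjusted p = 3.13e-08). Treated mice measured 139, 81.8 and 143 CPM at 12-weeks and 92.1, 100 and 84.7 CPM at 34-weeks, the latter below all WT mice (-0.80 ± 0.27, adjusted p = 0.575). Ugt3a2 was lower by -1.32 ± 0.26 and -2.46 ± 0.27 in Lipa-/- mice.

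The Ugt1a genes lie on the plus strand at chr1:87983110-88147724, in the order Ugt1a10, Ugt1a9, Ugt1a8, Ugt1a7c, Ugt1a6b, Ugt1a6a, Ugt1a5 and Ugt1a1. Each begins with sequence of its own and most of the downstream exons are common to all 8 genes, so that reads from the common exons cannot tell the genes apart. Between 64.8% and 89.3% of the 31-base stretches of a Ugt1a gene occur in other genes. Values of single Ugt1a genes therefore depend on how the quantification split shared reads, and the sum over 9 Ugt1a symbols, with the scarce Ugt1a2, is given beside them. That sum was lower in Lipa-/- mice by -0.90 ± 0.23 (adjusted p = 0.00442) at 12-weeks, short of the fold threshold, and by -1.79 ± 0.23 (adjusted p = 1.01e-05) at 34-weeks.

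Ugt1a1, the enzyme that glucuronidates bilirubin, had smaller fold changes than Ugt2b1. It measured 443, 564 and 553 CPM in WT and 283, 316 and 289 CPM in Lipa-/- mice at 12-weeks, and 580, 567 and 540 CPM against 162, 165 and 269 CPM at 34-weeks. The groups did not overlap, at 56.9% and 35.2% of the WT mean, and only the 34-week difference was past the fold threshold (-0.81 ± 0.26, adjusted p = 0.0207, and -1.50 ± 0.27, adjusted p = 0.000203). Treated mice measured 207, 331 and 429 CPM at 12-weeks, all below WT mice (-0.69 ± 0.26, adjusted p = 0.0486), and 470, 474 and 349 CPM at 34-weeks. Ugt1a9, a phenol-conjugating enzyme, fell further, from 41.2, 53.6 and 31.7 CPM in WT to 6.14, 12.7 and 15.2 CPM in Lipa-/- mice at 12-weeks, and from 91.1, 36.5 and 153 CPM to 1.99, 1.66 and 4.78 CPM at 34-weeks. Its log2 fold changes were -1.89 ± 0.53 (adjusted p = 0.00931) and -5.06 ± 0.61 (adjusted p = 5.4e-06), and treated mice measured 154, 211 and 78.6 CPM and 24.8, 59 and 47.2 CPM.

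Of the other Ugt1a genes, Ugt1a5 and Ugt1a6a were lower at both time points, and Ugt1a6b and Ugt1a10 at 34-weeks. The 12-week call of Ugt1a5 was lost without WT mouse 3 or Lipa-/- mouse 5 or 9 (adjusted p from 0.0913 to 0.144), and the 34-week call of Ugt1a10 without any 1 of the WT mice or without Lipa-/- mouse 4 or 5 (adjusted p from 0.061 to 0.127). Ugt1a7c measured 10.7, 10.8 and 14 CPM in WT and 24, 16.9 and 25.4 CPM in Lipa-/- mice at 12-weeks, with a difference of 0.90 ± 0.25 on the log2 scale (adjusted p = 0.00882), short of the fold threshold. Ugt1a8 had reads in 3 mice only, at 17.1 CPM in Lipa-/- mouse 5 and 107 CPM in treated mouse 10 at 12-weeks and at 0.156 CPM in 1 WT mouse at 34-weeks. All other mice were at 0, so that the call of Ugt1a8 in treated mice at 12-weeks (adjusted p = 0.0488) rested on 1 mouse, and without it no difference was left.

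**Figure D3:**
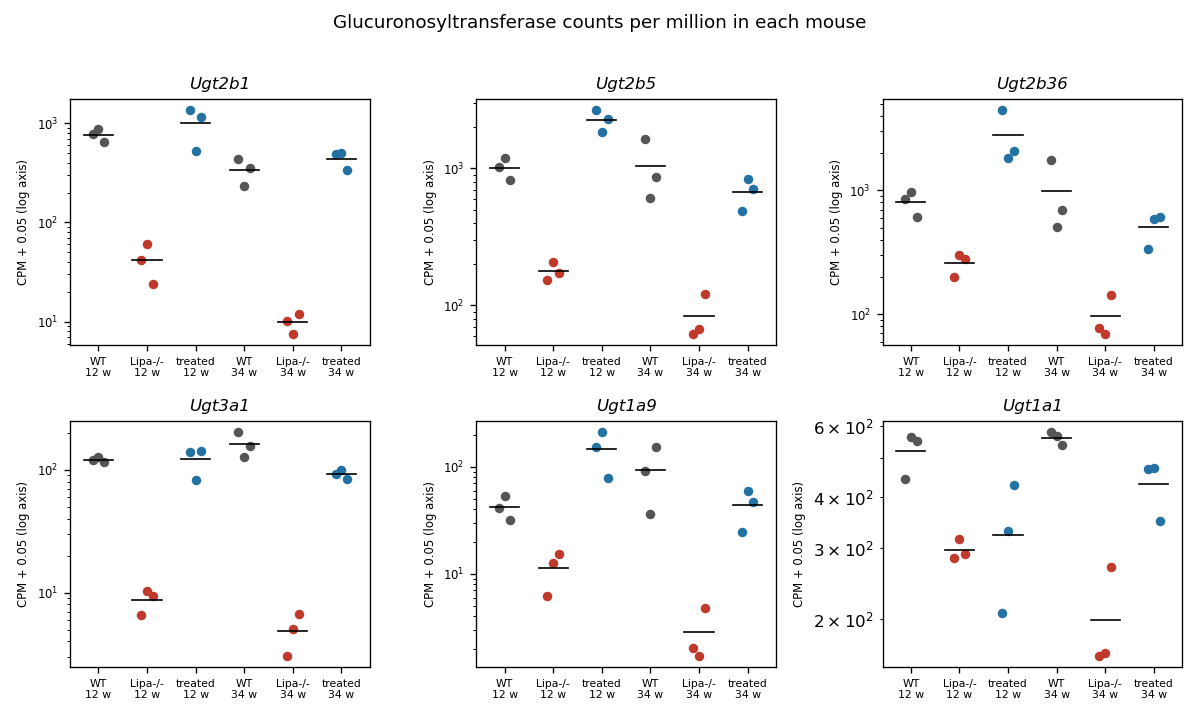
Abundance (CPM) of 6 glucuronosyltransferases in each mouse (points; black line, group mean), on log axes with 0.05 CPM added. All Lipa-/- mice lie below all WT mice of the same time point for each of the 6 genes, with the widest gap for Ugt2b1 (7.5 to 11.9 against 234 to 433 CPM at 34-weeks) and the narrowest for Ugt1a1.

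Of the GST genes, alpha-class Gsta3, which detoxifies epoxides, measured 2090, 2588 and 1843 CPM in WT and 742, 851 and 828 CPM in Lipa-/- mice at 12-weeks, and 3010, 1963 and 2194 CPM against 220, 289 and 491 CPM at 34-weeks. It was lower in every Lipa-/- mouse, with log2 fold changes of -1.43 ± 0.28 (adjusted p = 0.000805) and -2.84 ± 0.30 (adjusted p = 1.38e-06). Treated mice measured 2521, 2565 and 2748 CPM and 1552, 2020 and 1766 CPM. Gsta2 measured 18.2, 20.6 and 46.5 CPM in WT and 6.32, 4.78 and 8.65 CPM in Lipa-/- mice at 12-weeks, and 48.8, 17 and 70 CPM against 4.23, 1.31 and 15.4 CPM at 34-weeks. It was called at both time points (-2.11 ± 0.77, adjusted p = 0.039, and -2.69 ± 0.79, adjusted p = 0.00965), but 32.3% of its 31-base stretches are shared, and the sum of Gsta1 and Gsta2 was not called (-0.68 and -1.46, adjusted p = 0.573 and 0.187). The 12-week call of Gsta2 was lost without WT mouse 3 and without each Lipa-/- mouse (adjusted p from 0.0619 to 0.155), and the 34-week call without Lipa-/- mouse 4 (adjusted p = 0.0505). Treated mice held 5.05, 29.3 and 13.3 CPM of Gsta2 at 12-weeks and 26.1, 32.6 and 9.03 CPM at 34-weeks.

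Pi-class Gstp1, a major GST of male mouse liver, accounted for 48.9% of GST TPM in 12-weeks WT mice and for 24% in those of 34-weeks, where Gsta3 ranked first with 31.5%. It measured 3525, 4306 and 1686 CPM in WT and 902, 820 and 1130 CPM in Lipa-/- mice at 12-weeks, and the log2 fold change was -1.74 ± 0.50 (adjusted p = 0.0103). At 34-weeks the WT mice spread from 507 to 2491 CPM (2491, 507 and 1040) and overlapped with the Lipa-/- mice at 435, 524 and 817 CPM, a difference of -1.18 ± 0.49 (adjusted p = 0.0557). Without WT mouse 2 that difference was -1.58 (adjusted p = 0.0106), and without Lipa-/- mouse 6 it was -1.48 (adjusted p = 0.0427). Across the alternatives it ran from -1.58 to -0.24, and mean TPM at 34-weeks was 1593 in Lipa-/- against 2032 in WT mice. The change between the time points was not called (0.55 ± 0.68, adjusted p = 0.845). Treated mice measured 5338, 5878 and 7648 CPM at 12-weeks, above all WT mice (0.99 ± 0.49, adjusted p = 0.118), and 1249, 2869 and 2294 CPM at 34-weeks. Its near copy Gstp2, with 45.8% shared stretches against 46.6% in Gstp1, measured 35.2, 50.8 and 16.4 CPM in WT and 73.8, 91.6 and 107 CPM in treated mice at 12-weeks, and 19.8, 5.04 and 14.8 CPM against 32.5, 45 and 39.4 CPM at 34-weeks. Only the first of these differences was called (1.41 ± 0.47, adjusted p = 0.029, and 1.56 ± 0.48, adjusted p = 0.442), and that call was lost without WT mouse 1 or 3 or any 1 of the treated mice (adjusted p from 0.0535 to 0.124). In Lipa-/- mice Gstp2 was at 9.4 to 27.9 CPM without a call. At 12-weeks it was called lower without WT mouse 3 (-1.38, adjusted p = 0.0326) or Lipa-/- mouse 5 (-1.66, adjusted p = 0.016). At 34-weeks it was called higher with TPM values in limma, at 56.1 to 78 TPM against 18.3 to 41.9 TPM in WT mice. Across the alternatives the 34-week difference ran from -0.39 to 1.15.

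Gstz1, the maleylacetoacetate isomerase of tyrosine breakdown, measured 845, 934 and 666 CPM in WT and 254, 317 and 295 CPM in Lipa-/- mice at 12-weeks, and 1289, 617 and 648 CPM against 104 to 181 CPM at 34-weeks (-1.50 ± 0.33, adjusted p = 0.00179, and -2.65 ± 0.34, adjusted p = 1.08e-05). Treated mice measured 2197, 1156 and 1356 CPM and 439, 621 and 669 CPM. The theta class, which handles small halogenated compounds, was lower in all 3 of its tested genes at both time points. Gstt3 measured 40, 52.1 and 92.6 CPM in WT and 19.2, 16.2 and 20.3 CPM in Lipa-/- mice at 12-weeks, and 83.1, 89 and 104 CPM against 8.36, 5.45 and 17.6 CPM at 34-weeks, falls of -1.73 ± 0.41 and -3.14 ± 0.43 on the log2 scale. In treated mice it stayed low at 12-weeks, at 14.3, 26.4 and 30.1 CPM (-1.38 ± 0.40 against WT, adjusted p = 0.0163), and measured 72.3, 47.3 and 35.1 CPM at 34-weeks. The 12-week call in treated mice was lost without treated mouse 10 (adjusted p = 0.0668) or WT mouse 3 (adjusted p = 0.103), and 22.1% of the 31-base stretches of Gstt3 are shared, mostly with an unnamed gene model. Gstt1, Gstt2, the mitochondrial and peroxisomal Gstk1, Gsta4 and Gstm4 were lower at both time points as well, by -1.02 to -1.24 at 12-weeks and -2.34 to -2.52 at 34-weeks. The 12-week call of Gsta4 was lost without any 1 of the WT mice or without Lipa-/- mouse 5 or 8 (adjusted p from 0.0708 to 0.136), that of Gstm4 without WT mouse 1 or 3 or Lipa-/- mouse 5 (adjusted p from 0.0529 to 0.106), and that of Gstk1, by the fold threshold, without WT mouse 2 or 3 or Lipa-/- mouse 9 (-0.92 to -0.98).

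The mu class was mixed. Gstm1, its most abundant gene, measured 738, 818 and 1041 CPM in WT and 1142, 997 and 1125 CPM in Lipa-/- mice at 12-weeks, and 982, 1130 and 2184 CPM against 708, 514 and 1287 CPM at 34-weeks. In CPM these groups overlapped (0.33 ± 0.62, adjusted p = 0.707, and -0.78 ± 0.62, adjusted p = 0.321). In TPM the Lipa-/- mice at 12-weeks, at 1920, 1301 and 1378, lay above all WT mice, at 600, 597 and 963. Gstm1 thus made up 25.8% of their GST TPM against 7.76% in WT mice. Across the alternatives the 12-week difference ran from 0.23 to 1.11, with no adjusted p below 0.25. On the TPM scale the 34-week difference was 0.21. In treated mice Gstm1 measured 36.7, 656 and 473 CPM at 12-weeks, where mouse 10 stood far below all others, and 914, 1142 and 1160 CPM at 34-weeks. The sum of the 7 Gstm genes (chr3:107803137-107952210) differed by 0.16 ± 0.42 and -0.80 ± 0.42, without a call. Gstm5 was higher in Lipa-/- mice at 12-weeks, at 18.2, 21.5 and 29.6 against 10.6, 10.3 and 7.54 CPM (1.29 ± 0.32, adjusted p = 0.00401). At 34-weeks Gstm5 was not called, but it was called higher with total counts alone and with TPM values in limma. It was also called without WT mouse 1 (1.06, adjusted p = 0.0202) or Lipa-/- mouse 4 (1.00, adjusted p = 0.0311). Gstm6 and Gstm7 were lower at 34-weeks (-1.75 ± 0.22 and -1.43 ± 0.24). Omega-class Gsto1, a dehydroascorbate reductase, and Gstp3, Gstm2, Gstm3 and Gsta1 were called at neither time point.

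**Figure D4:**
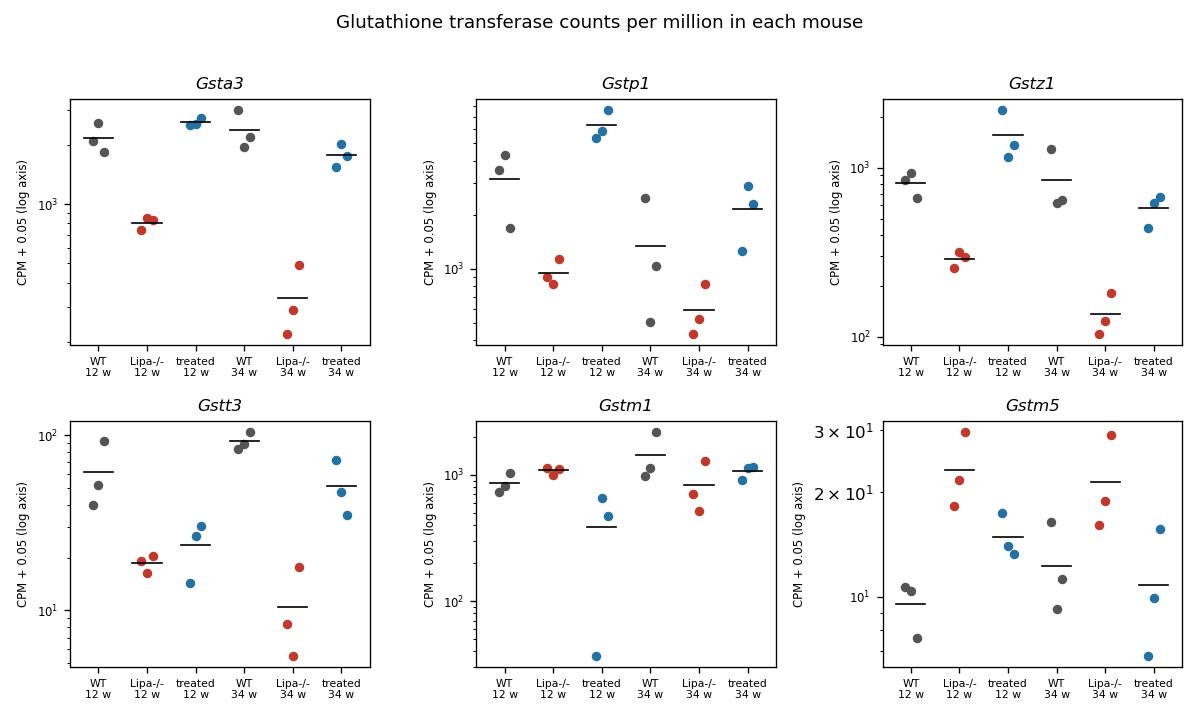
Abundance (CPM) of 6 glutathione transferases in each mouse (points; black line, group mean), on log axes with 0.05 CPM added. Gsta3, Gstz1 and Gstt3 are lower in all Lipa-/- mice than in all WT mice of the same time point and Gstp1 at 12-weeks only, whereas Gstm1 overlaps and Gstm5 is higher at 12-weeks (18.2 to 29.6 against 7.54 to 10.6 CPM).

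Whether the fall deepened between the time points was asked with an interaction term. The change of the Lipa-/- difference was called for none of the 48 genes in edgeR, where 0.0206% of all genes were called higher and 0.0413% lower. By unadjusted p below 0.05 there were 24 such genes, against 9.48% of all genes, DESeq2 called 4, against 1.32%, and the median change was -1.07 beside -0.14 over all genes. The smallest adjusted p belonged to Gstk1 (-1.50 ± 0.29, adjusted p = 0.0723). Without Lipa-/- mouse 6 of the 34-week group 4 genes were called, Gsta3, Gstk1, Sult1c2 and Ugt1a9.

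Most of these genes were higher in rAAV8-treated than in untreated Lipa-/- mice. At 12-weeks 25 of the 48 genes were higher and 3 lower in treated than in untreated Lipa-/- mice, where 16.2% of all genes were higher and 25.3% lower. At 34-weeks 33 were higher and 2 lower, against 12.8% and 18.6%. These comparisons share their Lipa-/- mice with those of Lipa-/- against WT mice. The genes lower in treated than in Lipa-/- mice were Sult1e1 at both time points, Sult3a1 and Gstm3 at 12-weeks and Sult2b1 at 34-weeks. Sult1e1, Sult2b1 and Sult3a1 were tested only because of their reads in the Lipa-/- mice. Their part in the counts of lower genes is therefore no support for a fall in treated mice. With total counts alone the 12-week split was 21 higher and 12 lower, with all genes at a median of -1.05, and with TPM values in limma it was 19 higher and 13 lower.

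Compared with WT mice, treated mice at 12-weeks were higher for 10 of the 48 genes and lower for 2, where 13.6% of all genes were higher and 12% lower. The 10 were Ugt2b5, Ugt2b35, Ugt2b36, Ugt2b37, Ugt1a8, Ugt1a9, Ugt1a10, Sult1b1, Sult1d1 and Gstp2, and the 2 were Gstt3 and Ugt1a5. Of these, 5 had been lower in Lipa-/- mice (Ugt2b5, Ugt2b35, Ugt2b36, Ugt1a9 and Sult1b1). The split into higher and lower genes depended on the scaling, since total counts alone gave 5 higher and 5 lower genes and TPM values 3 higher and 8 lower, with the median of the members at -0.03 and -0.32. None of the 12 genes changed sign under these scalings, but the genes past the thresholds differed. The number called also depended on single mice, being 3 when treated mouse 10 was left out, 3 without WT mouse 3 and 7 without WT mouse 1. Sult1d1 shows this, with 1.12 on the log2 scale (adjusted p = 0.0904) without treated mouse 10 beside 2.28 ± 0.57 (adjusted p = 0.00856) with it.

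At 34-weeks none of the 48 genes was called between treated and WT mice in edgeR, where 0.131% of all genes were higher and 0.0895% lower. DESeq2 called 0 as well, against 0.579% of all genes, and 9 genes had an unadjusted p below 0.05, against 5.76%. Values of the 3 treated and the 3 WT mice did not overlap for 10 of the 48 genes, against 8.89% of all genes. Sult5a1 and Gstp2 were the ones above WT mice, and Sult2a7, Sult1c2, Ugt1a1, Ugt1a7c, Ugt2b34, Ugt3a1, Gstk1 and Gstt3 lay below. The median log2 fold change was -0.42 beside 0.00 over all genes. Summed UGT transcripts were 1918, 1980 and 2065 TPM in treated mice, all below the WT mice at 2173 to 2730 (ratio 0.789, exact permutation p = 0.1), whereas at 12-weeks they were 2404, 2506 and 3091 TPM and above them (ratio 1.19, exact permutation p = 0.1). In CPM the UGT ratio was 0.72 at 34-weeks, where treated and WT mice overlapped (exact permutation p = 0.2), and 1.83 at 12-weeks. SULT and GST sums of treated and WT mice overlapped in TPM at both time points, whereas in CPM at 12-weeks the treated mice were above all WT mice, with ratios of 2.43 and 1.46 (exact permutation p = 0.1 each).

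Between the time points the difference of treated from WT mice fell for 12 of the 48 genes and rose for none, where 9.83% of all genes fell and 8.58% rose. These were Ugt2b5, Ugt2b34, Ugt2b35, Ugt2b36, Ugt2b37, Ugt1a7c, Ugt1a9, Sult1b1, Sult1d1, Sult2a7, Gstt2 and Gstz1, with changes from -1.12 to -4.02 on the log2 scale. Summed over the cluster, Ugt2b reads changed by -1.70 ± 0.52 (adjusted p = 0.0366) and Ugt1a reads by -0.09 ± 0.32 (adjusted p = 0.862). None of the 12 calls held when each mouse was left out in turn, and the number called was 0 when treated mouse 9 of the 34-week group or WT mouse 1 or 3 of the 12-week group was left out. It was 1 without WT mouse 1 of the 34-week group, 2 without treated mouse 10 of the 12-week group and 6 without treated mouse 11 of the 34-week group.

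**Figure D5:**
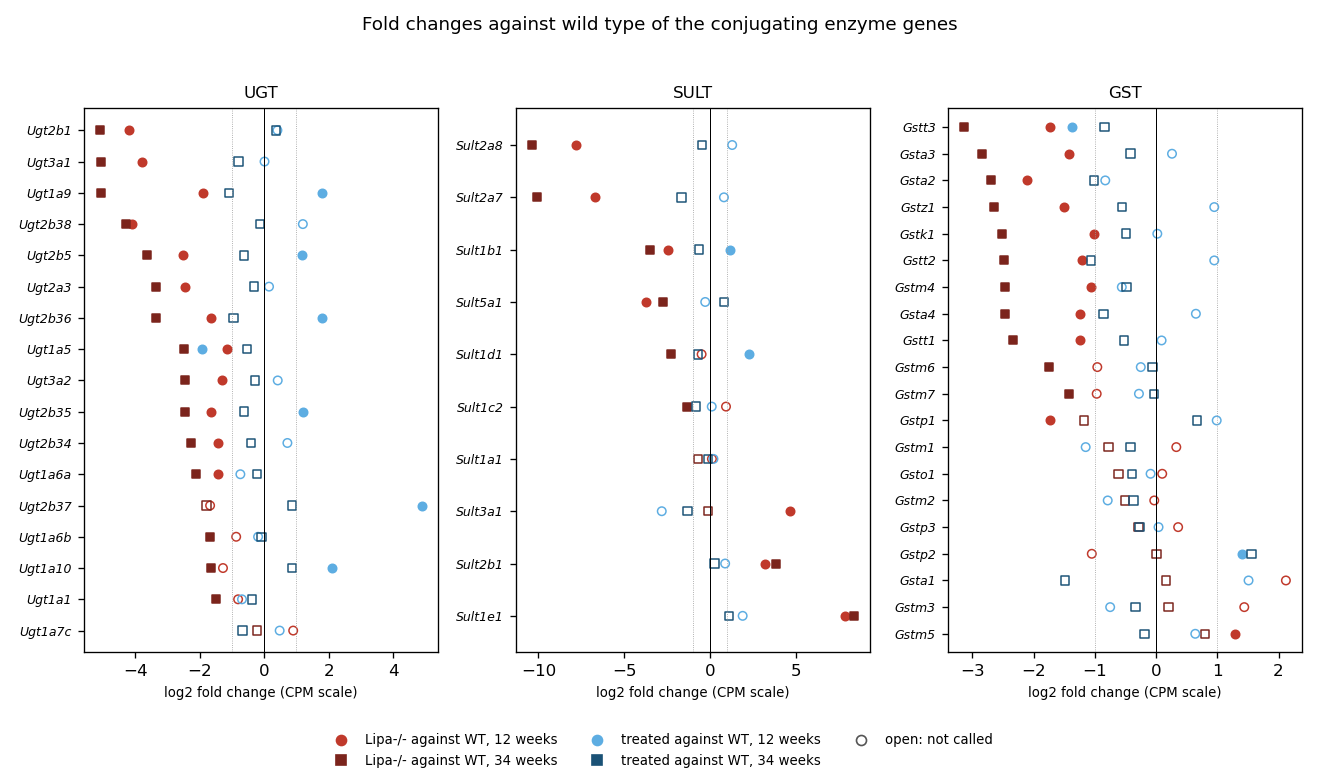
Log2 fold changes (CPM scale) against WT mice of the same time point for 47 of the 48 genes, with Lipa-/- mice in red, treated mice in blue, circles for 12-weeks, squares for 34-weeks and open symbols for genes not called; dotted lines mark the fold threshold. Ugt1a8, with reads in 3 mice, is left out, and the fitted values of Sult2a7, Sult2b1 and Sult3a1 rest on groups with few or no reads. Red symbols lie mostly on the left and blue squares near 0.

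Genes that supply the donor molecules of these enzymes were measured as well. For this and the following lists in Lipa-/- mice, 9.06% of all tested genes were lower and 20.2% higher at 12-weeks. At 34-weeks the shares were 15.7% and 20.5%. In the UDP-glucuronate list none of 4 genes was called at 12-weeks and 3 were lower at 34-weeks: Ugdh, which makes UDP-glucuronate (-1.06, adjusted p = 0.0206), Ugp2 (-1.54) and the transporter Slc35d1 (-1.35). In the PAPS list of 6 genes 1 was higher and 1 lower at 12-weeks and 3 were lower at 34-weeks, among them the synthase Papss2 (-1.56, adjusted p = 0.00228) and the phosphatase Bpnt1 (-1.55). Of 9 glutathione genes 2 were higher and 2 lower at 12-weeks, and 1 higher and 4 lower at 34-weeks. Gclc, the catalytic subunit of the first step, was lower (-1.06 and -2.12) and the cystine transporter Slc7a11 was higher at both time points (4.37 at 34-weeks).

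Many conjugating enzymes whose symbols were not matched were lower too. Of 17 such genes 8 were lower and 3 higher in Lipa-/- mice at 12-weeks, and 12 and 2 at 34-weeks, with medians of -0.88 and -1.95. Examples are the methyltransferases Inmt (-1.89 and -4.76) and Gnmt (-1.83 and -2.95), the bile acid conjugating enzyme Baat (-1.56 and -2.75) and the microsomal Mgst1 (-1.39 and -2.76). Those higher at both time points were Mgst2 and Hpgds, a sigma-class glutathione transferase that makes prostaglandin D2 in immune cells (6.27 and 5.43). By class Hpgds is a GST enzyme, but its symbol did not match, so the GST counts above leave it out. Among 5 export pumps Abcc4 was higher at both time points and Abcg2 lower, Abcc6 was lower at 34-weeks, and the canalicular Abcc2 was not called (adjusted p = 0.104 and 0.0502). Gusb, the lysosomal β-glucuronidase that splits glucuronides, was higher at both time points (2.29 and 2.08), the only gene of 4 in the hydrolysis list to be called in Lipa-/- mice.

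Receptors and factors known to control conjugating enzymes were mostly not called. Of 13 regulators 1 was lower at 12-weeks, Ppara (-1.42, adjusted p = 0.00371), and 4 at 34-weeks, among them Ppara (-1.98), Nr1i3 (the receptor CAR, -1.93) and Nr1h4 (the bile acid receptor FXR, -1.63). Of 8 receptor target genes 2 were higher and 2 lower at 12-weeks, and 1 and 3 at 34-weeks. Among all tested genes 9.06% were lower and 20.2% higher at 12-weeks, and 15.7% and 20.5% at 34-weeks. Counts in lists this small therefore say little about the lists. The CAR target Cyp2b10 was lower by -4.84 and -9.49 and the AhR target Cyp1a2 by -1.80 and -3.24, while Hmox1 was higher by 3.36 and 2.53 and Nqo1, a target of Nfe2l2, by 1.34 at 12-weeks (0.22, adjusted p = 0.681, at 34-weeks). In treated mice at 12-weeks the genes called against WT mice included Ugp2 (1.17) of the UDP-glucuronate list, Slc35b2 (1.33), Slc35b3 (1.60), Papss2 (-1.71) and Slc26a1 (-1.73) of the PAPS list, and Gss (1.30) and Cbs (-1.13) of the glutathione list. There were also 6 higher genes of the other conjugating enzymes with Baat (1.46), Nnmt (2.32) and Hpgds (3.34) among them. In that comparison 13.6% of all tested genes were higher and 12% lower. The exporter Abcc2 (-1.28), the sulfatases Arsa (-1.36) and Arsb (-1.09) and Hnf4a (-1.81), of the regulators, were lower, and of the receptor targets Cyp3a11 (1.75) and Hmox1 (1.04) were higher and Cyp2b10 (-6.03) lower. At 34-weeks no gene of the supply, conjugation, export, hydrolysis, regulator and receptor target lists was called in treated against WT mice. Of all tested genes 0.131% were higher and 0.0895% lower there.

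Genes with male-predominant expression in mouse liver were lower in 7 of 8 cases at 12-weeks and in 8 of 8 at 34-weeks, with medians of -5.96 and -7.45. Their summed TPM was 16927 to 32373 in WT and 1137 to 3145 in Lipa-/- mice at 12-weeks, and 6444 to 26498 against 467 to 716 at 34-weeks. In treated mice it was 56970 to 99800 at 12-weeks and 14250 to 29679 at 34-weeks. The high 12-week sum was mostly Mup20, at a mean of 95670 CPM in treated against 19975 CPM in WT mice (2.26, adjusted p = 0.0264). None of the other male-predominant genes was called there, with log2 fold changes from -1.73 (Cyp4a12a) to 0.69 (Slco1a1). Among 6 female-predominant genes 3 were higher at 12-weeks, and 3 were higher and 2 lower at 34-weeks. In treated mice at 34-weeks no male-predominant gene and 1 female-predominant gene, Cyp2b9, was called. The part of either list in the differences of the conjugating enzymes was not tested.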

How the data were processed

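Liver RNA of 18 male mice (6 groups of 3) was sequenced by the authors as poly(A)-selected, paired-end libraries of 150 bases. The authors quantified transcripts with Salmon 1.9.0 on GRCm39 with Ensembl release 110 and summarised them to genes with tximport 1.28.0 in R 4.3.0. They deposited 4 tables, of which the estimated counts, the TPM values and the transcript lengths were used. The deposited differential table holds the authors' own DESeq2 1.40.1 fold changes and p-values and was not used. Of the deposited estimated counts 19.4% were not whole, so they were rounded. Counts of paralogs depend on how Salmon divides shared reads.

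Genes with more than 100 reads over all mice were tested with edgeR 4.0.16 (quasi-likelihood test, TMM scaling, R 4.3.3) in 1 fit of the 6 group means, with Benjamini-Hochberg adjustment over the 14533 genes. Depth was 17527848 to 25833134 reads per mouse, and 3 reads, the limit taken for a count of 0, corresponded to 0.0946 to 0.291 CPM. Groups were taken from the genotype, treatment and time labels. The 8 comparisons were Lipa-/- against WT, treated against WT and treated against Lipa-/- at each time point, and the change with time of the first and second. Sums of TPM were compared by exact two-sided permutation tests. The code was tested on simulated counts. Alternatives were DESeq2 1.42.0, limma 3.58.1 on log2(TPM + 0.5), other scalings and filters, tximport length offsets, pairs of groups alone, summed gene clusters, a stricter adjusted p, a mouse-number block, and each mouse left out.

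The members and gene lists were chosen with earlier results of these data known. Values for every mouse are given for the 4 called members per family and time point with the largest change in Lipa-/- mice (mean of at least 1 CPM in a group, no overlap), the 3 most abundant members per family in WT mice, every member called in treated against WT mice at 34-weeks, and the 2 called members per family with the largest such change at 12-weeks. Values of other members were chosen after they were seen. Promoter windows are from RefSeq (GRCm38.p6) and gene positions from GRCm39. Some items are not reported here.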

Additional observations from a re-analysis of the deposited data

Results flagged for a closer look

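In 12 genes the difference between treated and WT mice changed between the time points by a test of that change (edgeR, adjusted p below 0.05), always towards lower values at 34-weeks. The changes on the log2 scale were -4.02 for Ugt2b37, -2.99 for Sult1d1, -2.91 for Ugt1a9, -2.74 for Ugt2b36, -2.46 for Sult2a7 and -2.01 for Gstt2. They were -1.82 for Ugt2b35, -1.79 for Ugt2b5, -1.79 for Sult1b1, -1.51 for Gstz1, -1.16 for Ugt1a7c and -1.12 for Ugt2b34. Time point and study code cannot be told apart, and each of the 12 calls was lost when at least 1 mouse was left out.

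Among the 22 symbols with 100 reads or fewer, which were not tested, 6 had at least 10 reads in the Lipa-/- mice of a time point and more than 5 times those of the WT mice. At 34-weeks Sult2a1 had 51.35 estimated reads in the 3 Lipa-/- mice and 3 in WT mice, Sult2a2 had 51.33 and 1, Sult2a5 had 50.18 and 0, and Sult2a6 had 10.11 and 0. Most of them came from Lipa-/- mouse 6, with 39.63 of Sult2a1, 38.1 of Sult2a2, 49.12 of Sult2a5 and 8.114 of Sult2a6. At 12-weeks Sult3a2 had 14 reads in Lipa-/- mice, spread as 4, 6 and 4, and Gsta5 had 24.2, with none of either in WT mice. This search asked only for reads above those of WT mice. In the other direction, Ugt1a2 had 19.66 reads in WT mice at 12-weeks and none in Lipa-/- or treated mice. At 34-weeks it had 9.821 reads in WT, 5.926 in Lipa-/- and 19.82 in treated mice.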

How the results depend on the processing

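The number of called members for Lipa-/- against WT mice stayed within 1.5 times under all alternatives, and so did that for treated against Lipa-/- mice apart from the block below. Leaving out each mouse in turn gave 26 to 30 called members for Lipa-/- against WT at 12-weeks and 33 to 36 at 34-weeks, with 23 of 30 and 32 of 34 called each time. It gave 26 to 29 and 31 to 35 for treated against Lipa-/- mice, with 25 of 28 and 30 of 35 called each time, 3 to 14 for treated against WT at 12-weeks with 2 of 12 (Ugt2b37 and Ugt1a5), and 0 to 1 at 34-weeks (Gstt2 without WT mouse 2, -1.39, adjusted p = 0.0469). The change with time gave 0 to 4 called members for Lipa-/- and 0 to 13 for treated mice.

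At an adjusted p below 0.01 treated against WT mice at 12-weeks gave 4 called members, and the change with time in treated mice gave 0, and 3 with TPM values in limma. The change with time in Lipa-/- mice gave 1 without a filter and 4 in DESeq2. The ratio of summed GST transcripts of treated to WT mice was 0.999 in TPM and 1.46 in CPM at 12-weeks, and 1.07 and 0.889 at 34-weeks. For single genes, Sult1a1 in Lipa-/- mice at 12-weeks was -0.07 without WT mouse 1, and Gstm1 at 34-weeks was 0.21 with TPM values. In treated mice at 12-weeks the summed cluster gave 0.12 for Gstt3 and -0.31 for Ugt1a8 and Ugt1a9, and without treated mouse 10 Ugt1a8 was at 0.00. The cause was not tested. Of the other values for single genes 828 kept direction and side of the threshold, 72 lost the call and 1 gained it, and with a mouse left out 452, 37 and 1.

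Mouse numbers name different animals, and the correlation of same-numbered mice across the time points ran from -0.25 to 0.46, so the numbers do not pair the mice. With mouse number as a replicate block, which left 3 residual degrees of freedom, treated against Lipa-/- mice gave 4 called members at 12-weeks and 8 at 34-weeks, and the change with time in treated mice gave 0. Comparisons with WT mice within a time point share no number and could not be fitted with the block.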
